A study of Caenorhabditis elegans with 2 samples.

Results

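The genes of the small subunit of the cytosolic ribosome were followed in chromatin immunoprecipitation sequencing (ChIP-seq) of ETS-4 in late embryos of the nematode Caenorhabditis elegans. The members are the protein-coding genes whose name begins with rps- in the Ensembl annotation of the WBcel235 genome (ce11), 31 of 19973 protein-coding genes. Each gene was given the highest region signal among regions whose summit, the position of highest enrichment, lay between 1000 bp upstream and 200 bp downstream of any annotated start of the gene. The rule rests on names and uses no measured value.

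All embryos were of strain OP509, which has the unc-119(tm4063) III allele in its background and carries the integrated transgene wgIs509, which encodes ETS-4 with a GFP-FLAG tag on its C-terminus. Whole hermaphrodite embryos were collected 5 hours after synchronization by egg bleaching, and sheared chromatin was precipitated with an antibody to GFP. There were 2 biological replicates of this 1 group and no second strain, stage or treatment, so every comparison below is between genes or between replicates. All values come from 1 transgenic line and from tagged protein made from a transgene. In chromatin of whole embryos, binding in many cells and stronger binding in a few cells cannot be told apart.

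A replicate list of regions was available for each replicate (15619 regions for replicate 1 and 14622 for replicate 2), along with a pooled list made from both (12348) and an IDR list (1106). The irreproducible discovery rate (IDR) procedure is designed to retain regions that rank alike in separate replicates. Weak regions are still present in the other lists, which served as its input, so a pooled region by itself is a candidate. Pooled and IDR signal were equal at all 1106 IDR regions, of which the lowest had 71.1, and exactly 1106 pooled regions reached that value. Membership in the IDR list is therefore the same as a high pooled signal here, and does not by itself show like ranks: rps-10, in the list, had rank 2996 in replicate 1 and rank 929 in replicate 2. Signal is the peak caller's own value, and genes were compared within a list, while the replicate lists were set side by side as deposited, with no rescaling. The number of reads behind a value is unknown, since the lists hold no counts.

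The small subunit reads the messenger RNA: its head and body hold the decoding site between them, and its platform lies near the exit of the mRNA channel. Its proteins are made in equal amounts in most growing cells, their genes are among the most strongly transcribed, and in C. elegans several of them carry small nucleolar RNA (snoRNA) genes in their introns, which guide the modification of ribosomal RNA. ETS factors bind DNA through a domain that reads a GGAA core, and C. elegans ETS-4 is known for roles in lifespan and in the response of neurons to axon injury.

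An IDR summit lay in a promoter window of 15 of the 31 rps genes (48.4%), against 5.34% of all protein-coding genes. A pooled region lay at 30 (96.8%), against 26.5% of all genes, and 27 (87.1%) had a region in both replicate lists, against 18.1%. With as many top regions taken from 1 replicate alone as the IDR list holds, 13 rps genes were reached by replicate 1 (background 5.07%) and 13 by replicate 2 (background 5.17%). The 15 IDR summits were 15 distinct regions, so no region was counted for more than 1 rps gene. These shares describe the genes and were not tested, because genes are not replicates of a condition.

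These 4 windows, of rps-24, rps-23, rps-28 and rps-1, show what DNA lies under some of the strongest summits. Each runs 100 bp either side of the pooled summit, which is the middle base, and is read 5′ to 3′ along the gene's strand from the RefSeq WBcel235 genome (ce11). Capitals mark any match, on either strand, to GAGAGA, to AGAGAC, or to the 5 words that were taken from the members' windows and are counted further on.
rps-24, chrIV:385220-385420, plus strand: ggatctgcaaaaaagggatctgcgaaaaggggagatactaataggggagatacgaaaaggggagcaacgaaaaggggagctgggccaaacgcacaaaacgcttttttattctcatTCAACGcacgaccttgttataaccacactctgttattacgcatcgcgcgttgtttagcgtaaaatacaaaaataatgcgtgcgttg
rps-23, chrIV:12391241-12391441, minus strand: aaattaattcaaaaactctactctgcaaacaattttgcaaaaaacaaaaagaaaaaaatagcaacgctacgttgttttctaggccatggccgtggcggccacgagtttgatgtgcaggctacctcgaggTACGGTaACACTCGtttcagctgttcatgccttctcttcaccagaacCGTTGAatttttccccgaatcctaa
rps-28, chrIV:1659134-1659334, plus strand: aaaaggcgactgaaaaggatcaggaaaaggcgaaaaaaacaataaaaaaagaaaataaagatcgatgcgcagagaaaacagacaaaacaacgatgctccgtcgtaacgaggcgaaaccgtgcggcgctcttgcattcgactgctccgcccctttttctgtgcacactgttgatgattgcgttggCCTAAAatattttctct
rps-1, chrIII:4475556-4475756, plus strand: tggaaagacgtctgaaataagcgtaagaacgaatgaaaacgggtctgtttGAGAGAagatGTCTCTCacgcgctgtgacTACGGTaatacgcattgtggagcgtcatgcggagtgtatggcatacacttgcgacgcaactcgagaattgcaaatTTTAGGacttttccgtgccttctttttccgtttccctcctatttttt
The rps-1 window is the one of the 4 with GAGAGA. Its GC content is 44.8%, and that of rps-23, the lowest of the 4, is 42.3%.

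Among the proteins of the head, rps-12, whose product lies in the beak of the head, was highest. Its region had a signal of 248.5 in the pooled list, 113.2 in replicate 1 and 138.5 in replicate 2. For rps-28, a protein next to the mRNA exit channel, the pooled, replicate 1 and replicate 2 values were 170.6, 100.5 and 70.0. These were the highest head genes in both replicates, although in replicate 2 rps-28 (70.0) was level with rps-19 (69.9).

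The next head genes lay close together. At rps-19, which in human is mutated in Diamond-Blackfan anaemia, the pooled signal was 150.7, with 78.3 in replicate 1 and 69.9 in replicate 2. At rps-20, a head protein with bacterial counterparts, it was 148.8, with 83.3 and 64.0. The order of rps-19 and rps-20 turned between replicates, so their levels did not differ beyond the spread between lists. Lower in the head were rps-15, a protein near the decoding site, with a pooled signal of 96.7 and replicate signals of 47.7 and 47.4, and rps-18, which bridges the head to the large subunit, with 73.8 and 43.3 and 32.3. The last was rps-10, a protein of the beak region, at 71.8 in the pooled list, 23.6 in replicate 1 and 41.6 in replicate 2. The rps-10 region stood just above the lowest IDR signal, and its replicates lay further apart than those of any other member in both lists (ratio 0.566).

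In the body and platform, the highest rps gene of all was rps-24, a protein of the body, with 259.0 in the pooled list, 130.4 in replicate 1 and 132.6 in replicate 2. It alone among members had a second IDR region in its window, with a signal of 213.6 and a summit at -365 bp (negative values are upstream). Close to it was rps-23, a protein of the decoding centre, with 228.9, 106.3 and 120.3. The platform protein rps-26, next to the mRNA exit, had 214.9, 85.6 and 123.5. In replicate 2, rps-12, rps-24, rps-26 and rps-23 lay between 120.3 and 138.5 and all other members at 70.0 or lower. In replicate 1 the same 4 genes did not stand apart as a set, since rps-28 (100.5) and rps-1 (93.1) were above rps-26 (85.6).

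For rps-1, another platform protein, the pooled signal was 158.9, with 93.1 in replicate 1 and 65.3 in replicate 2. For rps-0, the relative of the vertebrate laminin receptor precursor, it was 132.1, with 68.4 and 65.0. These lay between the 4 highest genes and a lower set within the IDR list. That lower set held rps-13, a body protein with bacterial counterparts, at 82.7 with 46.2 and 35.3. It also held rps-22, likewise of the body, at 80.1 with 32.6 and 38.3. The third was rps-30, made in many animals as a fusion to a ubiquitin-like protein, at 77.8 with 34.8 and 42.4. All 3 lay nearer to the lowest IDR signal (71.1) than to rps-15 (96.7).

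**Figure D1:**
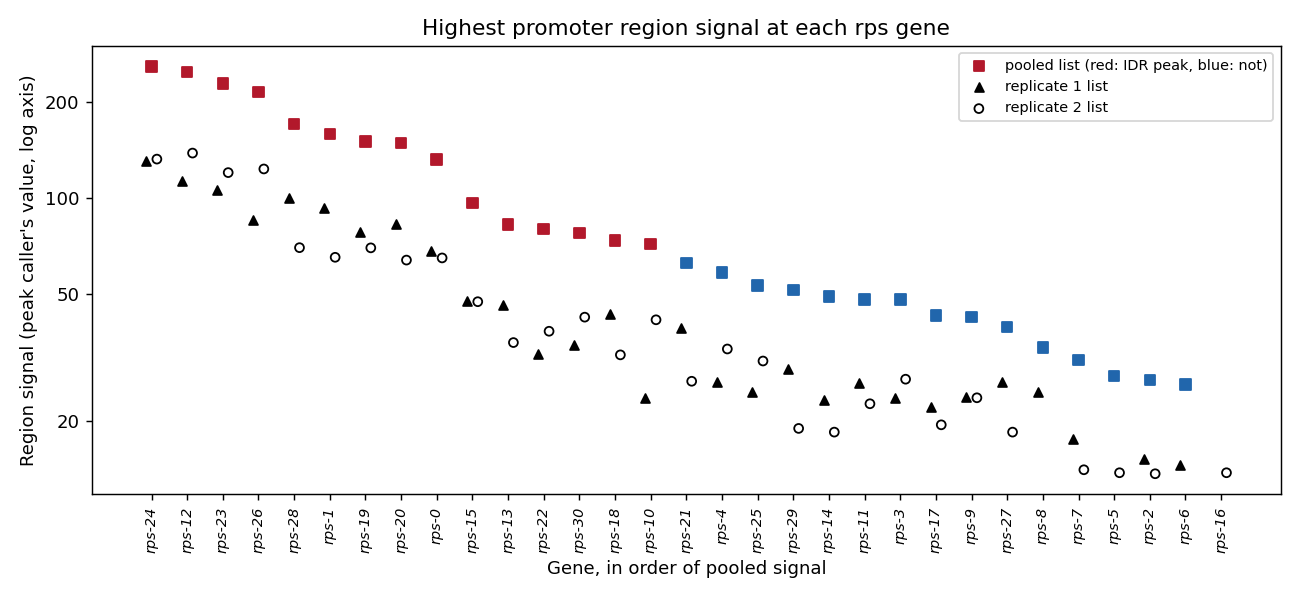
Highest region signal (log axis) at each of 31 rps genes, in order of the pooled signal, with squares for the pooled list (red with an IDR summit, blue without), triangles for replicate 1 and circles for replicate 2. The pooled signal falls from 259.0 at rps-24 to 26.1 at rps-6, the replicate values follow it with crossings, and rps-16 has a replicate 2 region alone.

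Of the members outside the IDR list, rps-21 came closest, with 62.6 in the pooled list, 39.1 in replicate 1 and 26.7 in replicate 2. Next were rps-4, a protein of the body, with 58.6, 26.6 and 33.7, and rps-25, a head protein used by some viral RNAs to recruit the ribosome, with 53.3, 24.7 and 30.9. The highest of these, rps-21, and the lowest IDR member, rps-10, differed by 62.6 against 71.8, so the boundary crosses a continuous range of values. The other pooled signals ran from 51.6 at rps-29 down to 26.1 at rps-6, with rps-14, rps-11, rps-3, rps-17, rps-9, rps-27, rps-8, rps-7, rps-5 and rps-2 between them in falling order. The −log10 q that came with the pooled regions of the 15 IDR members was 2.47 or higher, and that of the others ran from 0.05 at rps-6 to 1.93 at rps-21. At the low end, rps-6 and rps-8 had no region in replicate 2 and rps-5 none in replicate 1. The replicate 2 region of rps-5, with its summit at -805 bp, did not overlap the pooled region, whose summit lay at 135 bp.

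The pooled signal over the 30 rps genes with a region had a median of 67.2 (quartiles 44.2 and 144.6), against 36.8 over the 5284 protein-coding genes with a region. Within the IDR list the medians were 148.8 for 15 rps genes and 110.8 for 1066 genes, and outside it 42.9 and 32.8. This division is set by the signal itself, and within the IDR list the lower quartile of the rps genes, 81.4, was under the 84.6 of all genes. In the head, 7 of 13 genes had an IDR summit and the median pooled signal was 72.8 (n = 12). In the body and platform, 8 of 18 genes had one and the median was 60.6 (n = 18). Both places held members from the top to the bottom of the order.

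No region of rps-16, a head protein, was in the pooled or the replicate 1 list, and its replicate 2 region had a signal of 13.8. The gene starts 109 bp downstream of the end of fib-1, on the same strand of chromosome V. The fib-1 gene encodes fibrillarin, the methyltransferase that works with box C/D snoRNAs, and had an IDR region of signal 221.2 in the pooled list, 101.2 in replicate 1 and 119.2 in replicate 2. That summit lay at -126 bp from the fib-1 start and at -1808 bp from the rps-16 start, outside the window used for rps-16.

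Replicate values of the members followed each other. Across the 27 rps genes in both replicate lists, Spearman's rho was 0.883 and Pearson's r of the log2 signals was 0.927. Over 3617 protein-coding genes rho was 0.720, which is not a like measure. The highest region was taken in each list separately, and at all 27 rps genes the 2 regions overlapped. Over the 3617 genes the replicate summits were up to 38120 bp apart (upper quartile 172 bp), so some pairs are different regions. With an IDR summit, rho was 0.896 for 15 rps genes and 0.665 for 1064 genes. These correlations are descriptions across genes, which are not independent, and each pair of values comes from 2 libraries that the same control file was used with. The ratio of replicate 1 to replicate 2 had a median of 1.11 (range 0.566 to 1.53), and over all genes it was 0.962. It was within 1.5-fold for 25 of 27 genes, and the others were rps-10 and rps-29 (29.2 in replicate 1 and 19 in replicate 2). After division by the median ratio of all genes it was within 1.5-fold for 23 of 27. Replicate 1 was the higher in 17 of 27.

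**Figure D2:**
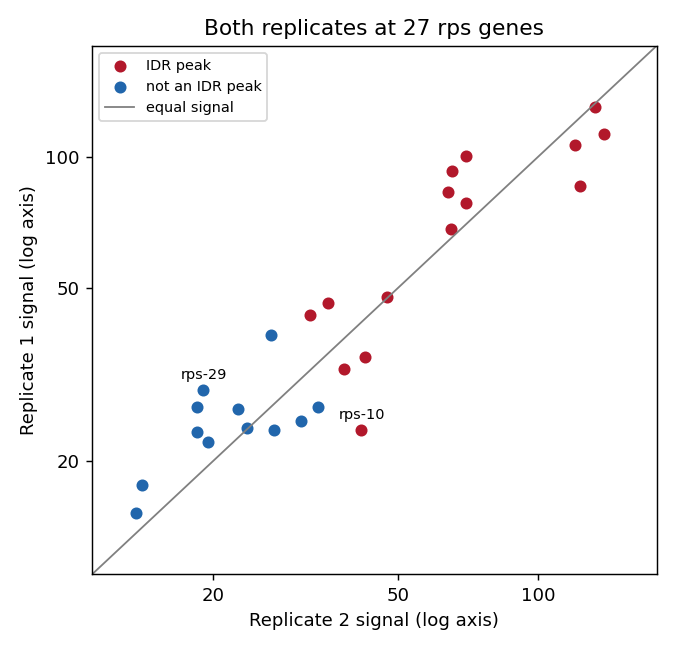
Signal of the highest region in the replicate 1 list against that in the replicate 2 list (log axes) for the 27 rps genes in both, red with an IDR summit and blue without, with a line of equal signal. The points lie along the line from 13.7 to 138.5, and rps-10 (23.6 against 41.6) and rps-29 (29.2 against 19) are the 2 named genes farthest from it.

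The summits lay in a narrow band upstream of the genes. The median distance from the nearest own start was -272 bp (quartiles -364.5 and -221.5), with 29 of 30 upstream, and over all genes with a region it was -250 bp with wider quartiles of -511 and -106. Between 150 and 400 bp upstream lay 21 of 30 rps summits (70.0%), 33 of 41 summits of rpl genes, which encode the large subunit, and 33.8% of those of all genes. The band was chosen after the members' values were seen. Farthest upstream were rps-27 at -804 bp, rps-18 at -670 bp and rps-24 at -567 bp, and the one downstream summit was that of rps-5, at 135 bp. Replicate summits lay within 50 bp of each other at 14 of the 15 IDR members, against 82.4% of all genes with an IDR summit, and at 3 of 12 members outside the IDR list, against 38.3%.

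**Figure D3:**
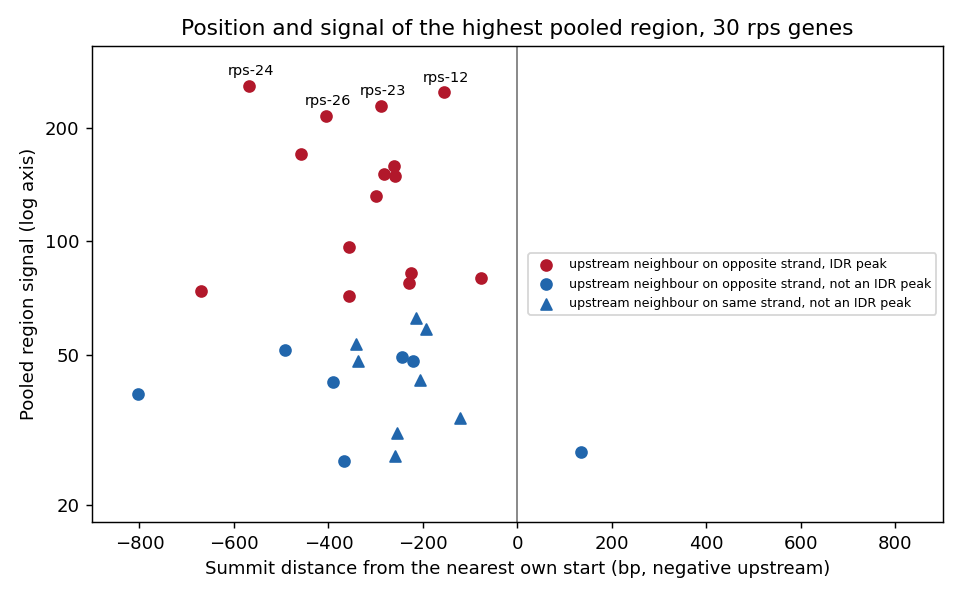
Pooled signal (log axis) against the distance of the summit from the nearest own start (bp, negative upstream) for 30 rps genes, with circles where the upstream neighbour is on the opposite strand and triangles where it is on the same strand, red with an IDR summit and blue without. Most summits lie 150 to 400 bp upstream, and the 8 triangles lie between 26.9 and 62.6 in signal.

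All IDR members had an upstream neighbour on the opposite strand, so that the starts of both genes face the stretch between them. An IDR summit lay at 15 of 22 rps genes in this arrangement (68.2%) and at 0 of 9 whose upstream neighbour was on the same strand. Over all protein-coding genes the shares were 8.29% and 2.88%. For the rpl genes they were 13 of 31 (41.9%) and 4 of 16 (25%), so same-strand genes with an IDR summit do occur in the partner subunit. The pooled signal of the 8 same-strand rps genes with a region ran from 26.9 to 62.6, and that of the 22 others from 26.1 to 259.0, so the ranges overlap in the lower part. With opposite neighbours within 1000 bp, 13 of 19 rps genes had an IDR summit, against 14.4% of all genes so placed. The 2 IDR members with a wider gap to the neighbour were rps-24 (2701 bp) and rps-28 (14392 bp). This split was chosen after the values were seen and was not tested.

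**Figure D4:**
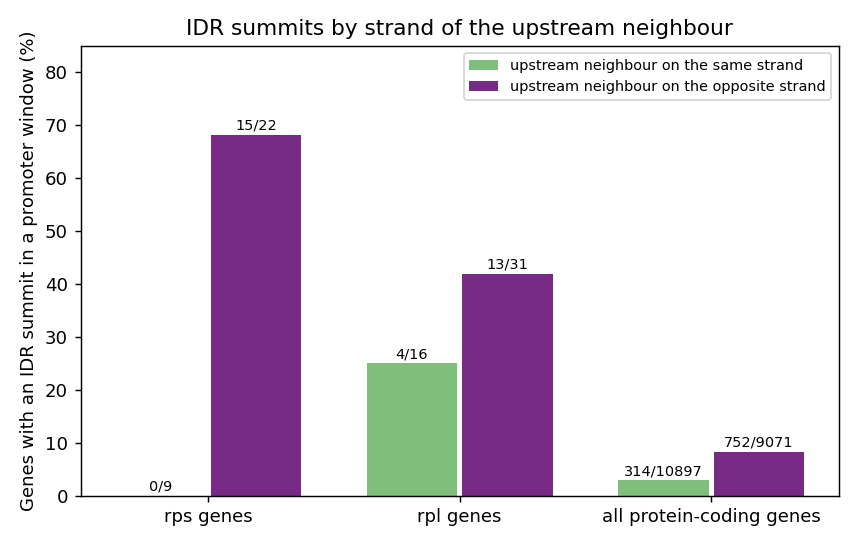
Share of genes with an IDR summit in a promoter window (percent, from 0) by the strand of the upstream neighbouring gene, for rps genes, rpl genes and all protein-coding genes, with the counts above the bars. The rps bars are 0 of 9 and 15 of 22, the rpl bars 4 of 16 and 13 of 31, and the bars of all genes 2.88% and 8.29%.

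A summit between divergent genes cannot be given to one of them. The highest region of 21 of the 30 rps genes (70.0%) also lay in a window of another protein-coding gene, against 36.5% of all genes with a region. Of the 15 IDR members 14 shared their region, the exception being rps-24, against 58.7% of all genes with an IDR summit. The nearest start belonged to the other gene in 9 of the 15, a count with no share over all genes beside it. The rps-12 summit, for example, lay 155 bp from the rps-12 start and 138 bp from that of ska-3, which encodes a subunit of the spindle and kinetochore associated complex. The rps-23 summit was 288 bp from its own start and 246 bp from that of dpm-3, a subunit of the dolichol phosphate mannose synthase, and the rps-26 summit was 404 bp from its own start and 53 bp from that of tmem-107.

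The partner was a gene of the large subunit in 3 cases. The region between rps-10 and rpl-24.1 (pooled 71.8) and that between rps-30 and rpl-39 (77.8) were IDR regions, and that between rps-14 and rpl-36 (49.3) was not. At rps-18 the partner was sec-61.A, the channel through which new proteins enter the endoplasmic reticulum. The summit lay inside sec-61.A and not between the genes, 670 bp from the rps-18 start and 255 bp from the nearest sec-61.A start. This region counted as shared through another sec-61.A start, 679 bp from the summit. Other IDR members faced rbg-3 (rps-0), ifet-1, a translational repressor of the germ line (rps-1), nfx-1 (rps-13), hsr-9 (rps-19), ekl-4 (rps-20), polh-1, a translesion DNA polymerase (rps-22), and F36A2.9 (rps-15). In the case of rps-28, the other gene, Y41D4B.4, lies downstream on the same strand and its start is 876 bp from the summit.

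A snoRNA gene lay inside 5 of the 31 rps genes (16.1%), against 0.961% of all protein-coding genes. The hosts were rps-4, rps-12 and rps-29, of which the last 2 hold a pair each, and rps-13 and rps-23. Of the hosts, rps-12, rps-13 and rps-23 had an IDR summit (pooled 248.5, 82.7 and 228.9), and rps-4 (58.6) and rps-29 (51.6) did not. Of the snoRNA genes inside hosts, F54E7.10 in rps-12 was the nearest to a summit and Y43B11AR.7 in rps-4 the farthest, at 946 bp. Beside the promoters of rps-26 and rps-10 lay the snoRNA genes F39B2.14, 114 bp from the summit, and D1007.20, 387 bp from it. A snoRNA gene lay within 1000 bp of the summit for 7 of 30 rps genes, 5 of them with an IDR summit, against 5.61% of all IDR regions and 1.92% of all pooled regions. The 7 are the 5 hosts with rps-10 and rps-26, so this count repeats the hosts. Those shares are over regions in or out of promoter windows, and not over genes. The miRNA gene cel-mir-354 lies inside rps-20. Whether the summits bear on the snoRNA or on the protein-coding gene was not tested.

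Motifs were counted within 100 bp of the pooled summit on both strands. GGAA, the core that ETS domains read, was in 24 of 30 rps windows (80.0%) and in 84.9% of the 4324 distinct pooled regions in the promoter windows of all genes. The longer CCGGAA was in 1 of 30, at rps-8, and in 0 of 15 IDR members, against 6.64% and, for IDR promoter regions, 5.66%. GAGAGA was in 7 of 30 (23.3%) against 26.4%, and in 2 of 15 IDR members against 33.0% of IDR promoter regions. AGAGAC, which can overlap GAGAGA, was in 6 of 30 (20%) against 17.9%. GACGCAG was in 1 of 30 against 9.07%, CCGCCC in 3 against 10.6%, TTTCAG, part of the trans-splice site consensus, in 6 against 24.7%, and TATAAA in 7 against 20.6%. No match says only that these letters are not in the window.

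The words shown in capitals came from the members themselves. Among all 2080 words of 6 bases, with reverse complements merged, 4 were taken with the highest count in the 30 rps windows over the count expected from all promoter regions plus 1. The word AACGTT was in 11 rps windows, against 5.18% of all 4324 promoter regions. The word ACCGTA was also in 11, against 6.98%. The word CCTAAA was in 12, against 8.21%, and the word CGTTGA was in 11, against 7.35%. Since they were picked for their counts at these genes, those counts support nothing. The counts of the 41 rpl windows were in view when the words were picked. Of these windows, AACGTT was in 11, ACCGTA in 22, CCTAAA in 17 and CGTTGA in 8. The regions of rps-10, rps-14 and rps-30 also lie in windows of rpl genes, so some sites may be counted in both sets. The 7-base ACACTCG, chosen by hand from a scan of words of several lengths, was in 6 of 30 rps windows and in 13 of 41 rpl windows, against 2.13% of promoter regions.

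ACCGTA did not follow the signal within the rps genes. It was in 6 of 15 IDR members and in 5 of 15 others, and among the 4 windows printed above it was in rps-23 and rps-1 and not in rps-24 or rps-28. CGTTGA was in 8 of 15 IDR members and 3 of 15 others, against 9.43% of IDR promoter regions and 7.35% of all promoter regions. For ACCGTA those shares were 9.03% and 6.98%. AACGTT was in 5 of 15 IDR members and 6 of 15 others, and CCTAAA was in 6 of 15 and 6 of 15, so the CGTTGA split was the widest of the 4. All 4 words were picked for their counts in the members' own windows, and no split was tested. The word ACCGTA was also counted in the 500 bp upstream of the most upstream start. There it was in 11 of 31 rps genes, 25 of 47 rpl genes and 4 of 29 genes of the mitochondrial small subunit (mrps-). It was also in 3 of 11 genes of the initiation factor eIF3. The share over all genes was 13.9%, and over all genes with an IDR summit it was 18.5%. This stretch overlaps most of the summit windows from which the word was picked, so the rps count is no separate support. In rps-13, rps-18 and rps-23 the reverse complement TACGGT was followed, after 1 base, by ACACTCG, as it was at rps-29 with a different base between them. Of the 11 members with ACCGTA, 7 were examined for what follows it, and the other 4 were not, among them rps-7 and rps-10, whose windows hold ACACTCG as well. The 4 sites, with TACGGT in capitals, show the shared run of bases.
rps-13, chrIII:6375155-6375182, plus strand: gttgtaTACGGTaacactcgttttgcgt
rps-18, chrIV:14825012-14825039, minus strand: cgaaggTACGGTaacactcgttttgcgt
rps-23, chrIV:12391291-12391318, minus strand: tcgaggTACGGTaacactcgtttcagct
rps-29, chrIII:793798-793825, minus strand: ctcgggTACGGTcacactcgtttcacgt
TACGGT lay at 19 bp from the summit at rps-18, at 6 bp at rps-29, at -34 bp at rps-23 and at -62 bp at rps-13 (negative is toward lower chromosome coordinates), and the rps-29 region was outside the IDR list.

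Related gene lists placed the rps genes among other parts of the translation machinery. An IDR summit lay at 17 of 47 rpl genes (36.2%), with rpl-3 (pooled 314.8), rpl-15 (307.5) and rpl-43 (261.0) highest, and the rpl median was 62.1 over 41 genes with a region. The difference between this share and the 48.4% of rps genes was not tested. The lists are not fully separate, since the IDR regions of rps-10 and rps-30 also lie in windows of rpl-24.1 and rpl-39. Of 29 mrps genes 1 had an IDR summit, mrps-35 (206.4), and 14 had a pooled region, with a median signal of 39.6. In the initiation factor eIF3, which docks on the small subunit, 5 of 11 genes had one, with eif-3.E (242.9), eif-3.B (215.1) and eif-3.I (185.8) highest. Of the small subunit proteins whose names fall outside the rps- rule, ubl-1, a ubiquitin-like fusion to a ribosomal protein, had an IDR summit (80.0) and rack-1 did not (29.5). Among 6 genes of small subunit assembly 1 had one, fib-1 (221.2), and nol-58 (64.2) and riok-2 (38.7) did not.

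The rps genes lie on 5 of the 6 chromosomes, and an IDR summit lay at 5 of 8 on I, 0 of 1 on II, 5 of 9 on III, 4 of 10 on IV and 1 of 3 on V. The shares of all genes on those chromosomes were 7.33%, 5.74%, 9.73%, 4.08% and 3.36%. The gene rps-12 lies in the 1 Mb bin of chromosome III with the most IDR regions, 60, where the median over 103 bins was 10. Bins with many IDR regions also held rps-1 and rps-0 (32 in their bin) and rps-19 (26), while rps-24 and rps-26 had 10 and rps-23 had 5.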

How the data were processed

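The 4 ce11 region lists were used. Per the readme texts, a replicate list was called on the alignments of 1 replicate with the shared control file, the pooled list on those of both, and IDR took all 3 lists. The region signal is the value the authors deposited in column 7, and the −log10 q is the value the authors deposited in column 9. For the aligner, caller, IDR threshold and signal scale, the sources used here give nothing. The ce10 lists and the control library were not used here. The lists hold no read counts, so library depth is unknown and intervals for counting error could not be made.

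All regions lay within the WBcel235 chromosomes. Windows ran around 29314 protein-coding starts (Ensembl release 115), and sequence came from the RefSeq genome of that build. Upstream neighbours are the nearest protein-coding genes that do not overlap the member. Scripts used Python 3.11.15, pandas 2.3.3, numpy 2.4.6, scipy 1.17.1 and matplotlib 3.10.9. The assignment of regions to promoter windows was tested on simulated regions at genes with 1 start. The other steps were not tested on simulated data. No value was tested, since the series holds 1 group. The members, lists and motifs were chosen with earlier results of these data known. Printed in full were the 15 IDR members, the 3 highest others, up to 3 genes per comparison list, and, of the windows of the 5 highest IDR members outside chromosome I, 4, as 1 is not reported here. Alternatives were each replicate alone, the upper 50% of IDR regions, windows of 500/100 and 2000/200 bp, region overlap of at least 1 bp, the most upstream start, overlapping replicate regions and motif windows of 50 and 250 bp. The alternatives for the layout split and for ACCGTA, and the restriction to members with the nearest start, were added after the data were seen.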

Additional observations from a re-analysis of the deposited data

How the results depend on the processing

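Of 39 alternative values over 11 results, 30 stayed within the limit set for them and 9 moved beyond it. Among the 30 was the median replicate ratio at overlapping replicate regions. It could not move, since the regions overlapped at all 27 members in both replicate lists. The limit was 1.5 times for a count and 1 SD between replicates for a median signal or distance. For the median replicate ratio it was 1 SD across members (0.27), a spread between genes and not between replicates. The IDR count of 15 became 9 in the upper 50% of the IDR list, without rps-10, rps-13, rps-15, rps-18, rps-22 and rps-30. It became 6 when members were kept whose own start was the nearest. No share over all genes was taken under these settings or for the same-strand counts below. Whether the excess over all genes changed there is therefore not known. With 1 replicate left out the IDR count was 13 either way (41.9%), against 5.07% of all genes for replicate 1 alone and 5.17% for replicate 2 alone. Replicate 1 alone lost rps-10, rps-22 and rps-30 and gained rps-21, and replicate 2 alone lost rps-13 and rps-18. The count of same-strand members with an IDR summit, 0, ranged from 0 to 1 with a replicate left out (rps-21 without replicate 2), and was 1 with the 2000/200 bp window (rps-16, through the region at fib-1). That window also moved the median pooled signal from 67.2 to 71.8 and the median distance from -272 to -282 bp. With a replicate left out, the median distance ranged from -294 to -287 bp. GAGAGA was near 4 summits within 50 bp, against 7 within 100 bp. No paired analysis was possible because the series holds 1 group. Depth limits every value by an amount that cannot be given without read counts.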
